A study of Homo sapiens with 5 samples.

Results

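A549 is an established human lung adenocarcinoma line. Here a library from A549 cells described as stably overexpressing the RNA-binding protein RBMS1 was set against a library from their control. The labels name the first R1A and the control pCDH, a name also used for a lentiviral expression vector. The comparison was made over the nuclear protein-coding genes whose CPM (counts scaled to a common library total), averaged over both libraries, reached 5. This took in 10332 of the 19932 nuclear protein-coding genes and of the 58929 genes in the tables. At the edge of that rule 182 genes lay between 5 and 5.5 CPM and 185 lay between 4.5 and 5. The series holds 5 libraries of the same line: a short hairpin (sh) control, knockdowns of RBMS1 with the hairpins sh1088 and sh1196, the pCDH control and the overexpression library. All of them were called ribosome footprint libraries by the design text, although their molecule label reads total RNA and the protocol also speaks of a fragmented input. Cycloheximide was given to the cells at 100 ug/mL for 15 min, lysates received RNase I over 5 min, and the monosome fractions of a sucrose gradient were sequenced after depletion of ribosomal RNA. The labels do not say whether the overexpressing cells are 1 clone or a pool, nor which RBMS1 sequence was introduced. With 1 library on each side there is no replicate check and no test. Every ratio below is a log2 ratio of overexpression over the pCDH control. Its 95% interval covers the error of counting alone and treats every count as a separate molecule. Any copies made by PCR among the counts would make it too narrow even for that error.

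RBMS1 belongs to a small family of proteins with paired RNA recognition motifs that bind A- and U-rich RNA and single-stranded DNA. Such proteins act on the stability and the translation of the messages they bind. A ribosome shields a short stretch of mRNA from nuclease, so the number of protected fragments on a gene reflects both how much of its mRNA is present and how many ribosomes it carries. In these footprint counts the amount of mRNA and the ribosomes per mRNA cannot be told apart.

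The libraries held 13980837 counts for the pCDH control and 10470105 for overexpression, and between 10327750 and 11739408 for the others. Nuclear protein-coding genes took 66.3% and 62.3% of the counts in the compared libraries and between 37.7% and 66.0% in the others. The median difference between a gene's length and its effective length, which grows with fragment length, was 51.3 nt with pCDH, the longest of the 5 libraries, and 39.9 nt with overexpression, the shortest. Markers of the A549 line were high in both, with all 13 among the genes compared and a summed scaled CPM of 18851 with overexpression and 10368 with pCDH. Of 10 fibroblast markers 6 had 0 counts with pCDH and 4 with overexpression, among them DCN and FAP in both. The fibroblast marker THY1 had 338 counts with pCDH and 76 with overexpression. Of 10 immune markers PTPRC, CD3E and CSF1R were at 0 in both, but CD68 had 1531 and 292 counts and CD14 363 and 153. Of 10 endothelial markers 7, among them VWF, KDR and TIE1, were at 0 in both, and ESAM had 177 and 21. Of 10 neural and embryonic kidney markers 4 were at 0 in both. Others on that list were well counted, such as CDH2 with 1135 and 1126 and TUBB3 with 865 and 652.

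RBMS1 itself was used to check the labels. The gene (ENSG00000153250.20, chromosome 2, 160272151 to 160493794, minus strand, GRCh38) overlaps another on the same strand and had 431 counts with pCDH and 439 with overexpression, a ratio of 0.61 (95% counting interval 0.41 to 0.80) or 1.52-fold. On the CPM scale shared by all 5 libraries its level was 37 with overexpression, 24.6 with pCDH, 31 with the sh control, 18.3 with sh1088 and 13.5 with sh1196. The overexpression library was thus the highest, yet it stood only 0.24 above the sh control on the log2 scale. The ratio of 0.61 over pCDH also lay below the upper quartile of all genes compared, at 0.68. This check therefore does not set RBMS1 apart from the general spread of ratios. With the trend of the ratio on GC content taken out, as described below, the ratio was 0.05.

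Of the 10332 genes 1495 (14.5%) were at least 2-fold higher in the overexpression library and 1368 (13.2%) at least 2-fold lower. Scaling by library size instead of TMM, the trimmed mean scaling used here, turned these counts into 1112 and 1747. The median ratio was 0.07, with quartiles at -0.56 and 0.68. The counting interval lay wholly above 0 for 4435 genes and wholly below it for 3794. At 4-fold the counts were 183 higher and 174 lower, and at 8-fold 48 and 17. A further limit is that 3568 of the genes (34.5%) overlap another gene on the same strand, where counts may have been divided between the overlapping genes.

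**Figure D1:**
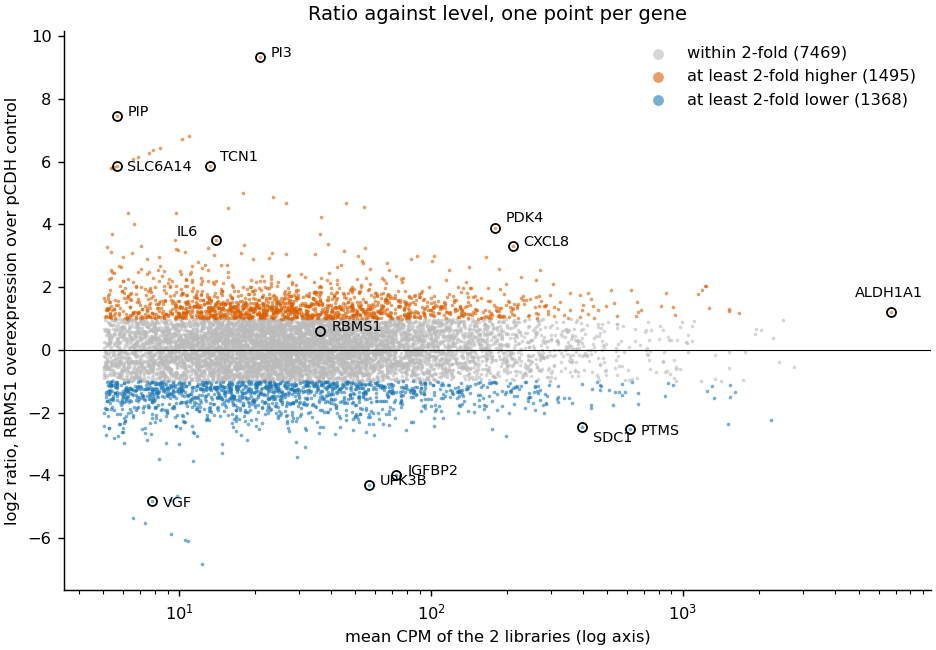
Log2 ratio of overexpression over the pCDH control (vertical) against the mean CPM of both libraries (horizontal, log axis), 1 point per gene for 10332 genes, coloured by the 2-fold limits; genes with 0 counts in a library are drawn at the value for 3 counts. PI3 lies highest among the marked genes at 9.35 and VGF lowest at -4.82, while RBMS1 lies at 0.61.

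Setting both libraries among all 5 showed which of them stood apart. Over all 10332 genes the overexpression library was the highest of 5 for 2249 (21.8%) and the lowest for 1372 (13.3%). The pCDH library was the highest for 3244 (31.4%) and the lowest for 3117 (30.2%). Of the 1495 genes called higher, the pCDH library was the lowest of 5 for 1269 (84.9%) and the overexpression library the highest for 767 (51.3%). Of the 1368 called lower, the pCDH library was the highest for 1235 (90.3%) and the overexpression library the lowest for 499 (36.5%). A call fixes the order of the compared libraries, so a rise of these shares over the shares of all genes is built in. The asymmetry between them is not: for most calls the pCDH library was the one at the end of the range. Most results below are therefore also given against the sh control instead, a ratio that shares the overexpression library with the main one. The sh control was made for the hairpins, so it is not matched to the overexpression vector.

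**Figure D2:**
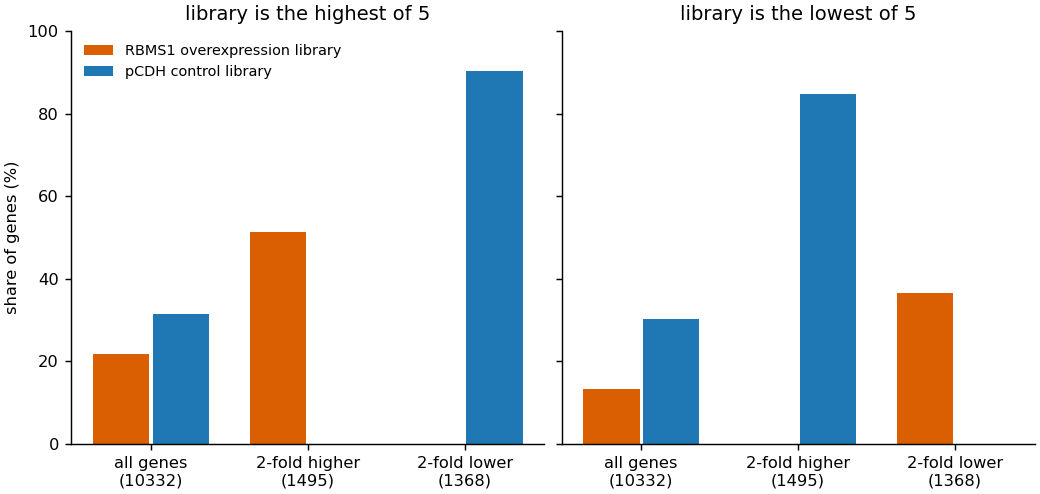
Share of genes (%) for which the overexpression or the pCDH library was the highest (left) or the lowest (right) of the 5 libraries, among all 10332 genes, the 1495 genes at least 2-fold higher and the 1368 at least 2-fold lower. The pCDH bars reach 84.9% and 90.3% for the called genes, against 51.3% and 36.5% for overexpression.

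The ratio followed base composition. Across 10289 genes with a GENCODE 29 transcript the Spearman rho of the ratio with transcript GC content was -0.58, and it was -0.59 with the GC content of the coding sequence, -0.56 with that of the last base of each codon and 0.15 with transcript length. Genes are not independent replicates, so these are descriptions. In the lowest of 10 equal bins by GC content (31.8% to 38.8%) the median ratio was 0.76, with 36% of genes at least 2-fold higher and 1.65% lower by as much. In the highest bin (61.9% to 74.5%) it was -0.93, with 0.68% higher and 46.3% lower. The pCDH control over the sh control, sh1088 and sh1196 gave rho of 0.41, 0.44 and 0.40, whereas overexpression over the same libraries gave -0.12, -0.18 and -0.39. The pCDH library thus showed a rho of at least 0.40 in size against each of these 3, and the overexpression library came near that only against sh1196. With the length of the coding sequence the rho was 0.45 for overexpression over the sh control, against 0.04 over pCDH. Ratios over the sh control thus carry a length trend that was not taken out. Whether either trend arose in the cells or in the making of the libraries was not tested.

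To show what such a difference in composition looks like to a ribosome, the middle 60 coding bases of genes from both ends are printed here from the GENCODE 29 transcripts, with G and C in capitals. RSL24D1 (chromosome 15) and CXCL8 (chromosome 4) were higher in the overexpression library and IGFBP2 (chromosome 2) and PTMS (chromosome 12) were lower.
RSL24D1: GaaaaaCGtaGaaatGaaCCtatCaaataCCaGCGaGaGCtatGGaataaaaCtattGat
CXCL8: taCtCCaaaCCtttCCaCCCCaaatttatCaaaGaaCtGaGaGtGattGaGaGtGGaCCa
IGFBP2: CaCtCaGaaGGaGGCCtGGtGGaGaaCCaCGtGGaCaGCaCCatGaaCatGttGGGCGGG
PTMS: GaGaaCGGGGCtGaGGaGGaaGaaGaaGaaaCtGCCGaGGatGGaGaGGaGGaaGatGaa
These windows held 20, 25, 36 and 32 G or C bases in the order printed. The whole transcripts had a GC content of 35.8%, 33.4%, 67.7% and 65.8%.

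A lowess trend of the ratio on transcript GC content was subtracted to see which genes departed from others of like composition. With the trend subtracted 922 genes (8.96%) were higher by 2-fold or more and 871 (8.47%) lower, of which 654 and 598 were also called without the subtraction. Differences between chromosomes shrank with it. Chromosome 19, the richest in GC (median 60.4%), had a median ratio of -0.54, and chromosome 13, with 42.0%, had 0.54. With the trend taken out they stood at 0.00 and 0.07, and the chromosomes ranged from -0.08 on chromosome 2 to 0.13 on X. Genes for zinc finger proteins of the C2H2 type, most of them KRAB repressors with AT-rich coding sequence, had a median of 0.46 over 35 genes, and -0.15 with the trend taken out.

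**Figure D3:**
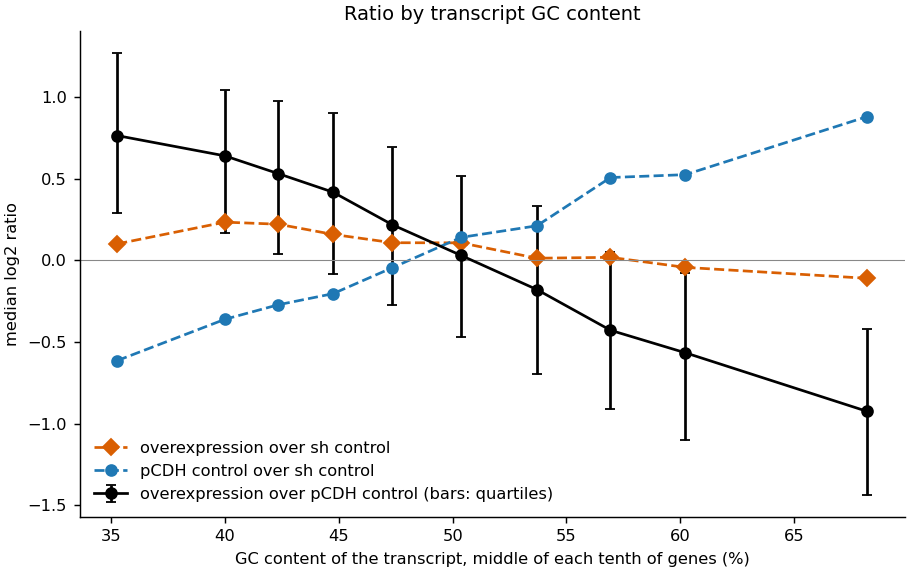
Median log2 ratio (vertical) in 10 equal bins of genes by GC content of the transcript (horizontal, %), for overexpression over the pCDH control (black, bars from the lower to the upper quartile) and for overexpression and the pCDH control each over the sh control (dashed). The black line falls from 0.76 to -0.93 and the blue one climbs from -0.61 to 0.88, while the orange one stays between -0.11 and 0.23.

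The genes most clearly higher in the overexpression library are the 15 whose interval lay farthest above 0 among those that overlap no other gene on the same strand. PI3, the elastase inhibitor elafin, had 1 against 437 counts (pCDH against overexpression), a ratio of 9.35 (6.87 to 14.66). PIP, a secreted prolactin-induced protein, had 1 against 118, a ratio of 7.46 (4.96 to 12.78). SLC6A14, an importer of neutral and cationic amino acids, had 0 against 118, and was 58.8-fold higher when 3 counts are put in place of 0. That value rests on the chosen floor and is not a lower bound. For all 3 genes the pCDH control gave 1 count or none.

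Aldehyde oxidase AOX1 had 3 against 174 counts, a ratio of 6.44 (4.87 to 8.73). ASB4, a subunit of a ubiquitin ligase, had 3 against 156, a ratio of 6.28 (4.71 to 8.57). TCN1, a vitamin B12 carrier, had 7 against 271, a ratio of 5.85 (4.79 to 7.18). These ratios rest on few counts in the pCDH control, as their wide intervals show. Better counted were OLR1, a scavenger receptor for oxidised LDL, with 17 against 362 and a ratio of 4.99 (4.29 to 5.79), and KCNJ2, an inward rectifier potassium channel, with 24 against 476 and 4.89 (4.30 to 5.55). C4BPA, a soluble inhibitor of complement, had 31 against 534 and a ratio of 4.69 (4.16 to 5.26), and DDIT4L, an inhibitor of mTORC1, had 20 against 311 and 4.54 (3.89 to 5.27). The largest numbers of footprints among the 15 were those of PDK4, the kinase that shuts off pyruvate dehydrogenase, and of the chemokine CXCL8. PDK4 had 351 against 3495 counts, a ratio of 3.90 (3.74 to 4.06). MUC13, a membrane mucin, had 160 against 1022, a ratio of 3.25 (3.01 to 3.50), and RSL24D1, a factor in the assembly of the large ribosomal subunit, had 81 against 696 and 3.68 (3.35 to 4.03).

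All 5 libraries divide these 15 genes. The overexpression library was the highest of 5 for 10 of them, and 11 were at least 2-fold higher against the sh control as well. PDK4 had a scaled CPM of 295 with overexpression, 20.0 with pCDH, 126 with the sh control, 59 with sh1088 and 10.5 with sh1196. MUC13 had 86.2 with overexpression, 9.13 with pCDH, 24.3 with the sh control, 16.3 with sh1088 and 5.29 with sh1196. In both genes the pCDH control and sh1196 were low and overexpression was the highest. C4BPA had 45.1 with overexpression, 1.77 with pCDH, 8.96 with the sh control, 39.5 with sh1088 and 0.545 with sh1196, so that sh1088 came close to overexpression. RSL24D1 had 58.7 with overexpression, 4.62 with pCDH, 49.3 with the sh control, 58.6 with sh1088 and 67.3 with sh1196. There the overexpression library lay within the range of the sh libraries and the pCDH control alone was low. The ratio of overexpression over the sh control was 2.84 for SLC6A14, 2.71 for PIP, 2.31 for C4BPA and 2.01 for TCN1, against 0.23 for RSL24D1, 0.38 for OLR1 and -0.20 for the cytokine IL6. With the GC trend taken out all 15 stayed above 2 on the log2 scale, from 2.45 for CXCL8 to 9.54 for PI3.

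The 15 genes most clearly lower were GC-rich, with a median transcript GC content of 64.1% against 41.4% for the 15 higher ones. VGF, a neuropeptide precursor, had 211 against 5 counts, a ratio of -4.82 (-6.46 to -3.57), and UPK3B, a membrane protein of mesothelium and urothelium, had 1512 against 51 and -4.31 (-4.74 to -3.91). IGFBP2, which binds insulin-like growth factors, had 1926 against 82, a ratio of -3.97 (-4.31 to -3.66). SDC1, the cell surface proteoglycan syndecan-1, had 9553 against 1163 and a ratio of -2.46 (-2.55 to -2.37). PTMS, parathymosin, had 14902 against 1726 and -2.53 (-2.60 to -2.46). Among these 5 genes PTMS and SDC1 were the most heavily covered.

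NUPR1, a small stress-induced chromatin protein, had 464 against 42 counts, a ratio of -2.89 (-3.38 to -2.43). It was unlike the rest in composition, with a transcript GC content of 50.3%, and the ratio was -2.92 with the trend taken out. The receptor FGFR4 had 1194 against 135 counts and a ratio of -2.57, and IGFBP6, another binding protein for insulin-like growth factors, had 4229 against 492 and -2.52. COL6A2, a chain of collagen VI, had 433 against 44 and -2.72. DDRGK1, a factor of the UFM1 pathway at the endoplasmic reticulum, had 4901 against 488 and -2.75, and MAFK, a small MAF transcription factor, had 2457 against 305 and -2.43. The remaining genes EVA1B, FAM20C, TMEM184A and PPP1R9B had ratios of -2.97, -2.92, -2.66 and -2.54. FAM20C is a kinase of secreted proteins and PPP1R9B a regulatory subunit of protein phosphatase 1.

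For 13 of these 15 genes the pCDH library was the highest of 5, and for 6 the overexpression library was the lowest. IGFBP2 had a scaled CPM of 6.92 with overexpression, 109.9 with pCDH, 6.84 with the sh control, 20.3 with sh1088 and 30.9 with sh1196. SDC1 had 98.1 with overexpression, 545 with pCDH, 56 with the sh control, 71.2 with sh1088 and 154 with sh1196. The pCDH control stood alone at the top for both genes, and overexpression lay at or within the range of the sh libraries. NUPR1 had 3.54 with overexpression, 26.5 with pCDH, 48.6 with the sh control, 24.2 with sh1088 and 7.94 with sh1196. In this gene the overexpression library was the lowest and the sh control the highest, and the ratio over the sh control was -3.80. UPK3B and MAFK were also at least 2-fold lower than in the sh control, with -1.64 and -1.16. COL6A2 stood at 1.29, FAM20C at 0.96, SDC1 at 0.79, EVA1B at 0.34 and VGF at 0.15, on the other side of 0.

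**Figure D4:**
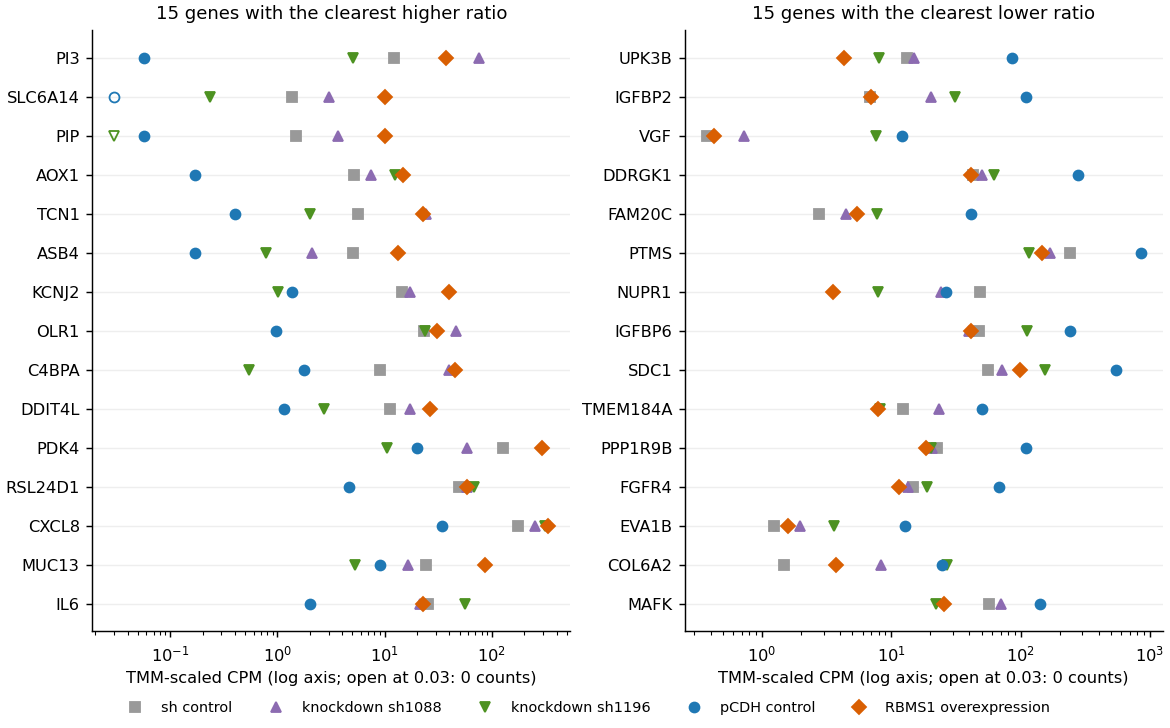
TMM-scaled CPM (horizontal, log axis) of the 15 genes most clearly higher (left) and lower (right) in the overexpression library, with 1 symbol per library and open symbols for 0 counts. On the right the blue pCDH points lie apart at the top for 13 of 15 genes, for example IGFBP2 at 109.9 against at most 30.9 elsewhere.

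The sign of a list median depends on the scaling, because the authors' TPM values put the median of all genes at -0.72 in place of 0.07. Lists are therefore read against the median of all genes. Another scaling of the counts shifts all genes alike and cannot move a list across it, so only the authors' TPM and FPKM values could. Under all 6 scalings and units tried, 31 of 37 lists stayed on the same side of that median. The other lists were those of ATF4 targets, RNA-binding relatives of RBMS1, fatty acid synthesis, ferroptosis suppressors, hypoxia and neural markers. By the log2 fold changes of the authors' deposited table the lists on the other side numbered 5, those of G1/S genes, glycolysis, ATF4 targets, fatty acid synthesis and ferroptosis promoters, and the mesenchymal median was -0.34 in the authors' deposited table.

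Genes of inflammation had the highest median of the lists with at least 10 genes. NF-kB is a transcription factor family that switches on cytokines, chemokines and its own inhibitors after infection or stress. Of the 24 genes of this list that reached the CPM minimum, out of 32, 14 were at least 2-fold higher and 1 was lower by as much, and the list median was 1.63 against 0.07 for all genes. The neutrophil chemokine CXCL8 (chromosome 4) had 598 counts with pCDH and 3977 with overexpression, a ratio of 3.31 (3.19 to 3.44). CXCL1, a related chemokine, had 587 against 3031 counts, a ratio of 2.95 (2.82 to 3.08). The cytokine IL6 had 35 against 268, a ratio of 3.52 (3.00 to 4.07), and TNFAIP3, the feedback inhibitor A20, had 34 against 196 and 3.11 (2.58 to 3.68). Ligands and feedback inhibitor were thus higher together in this pair of libraries.

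The promoters of the first 3 of these genes show what they share. They are printed from RefSeq (GRCh38.p14, plus strand, 250 bases before to 50 after the start), and the capitals mark the 9 letters GGNNTTTCC, part of the kB motif, searched on both strands.
CXCL8 (chr4:73740319-73740618): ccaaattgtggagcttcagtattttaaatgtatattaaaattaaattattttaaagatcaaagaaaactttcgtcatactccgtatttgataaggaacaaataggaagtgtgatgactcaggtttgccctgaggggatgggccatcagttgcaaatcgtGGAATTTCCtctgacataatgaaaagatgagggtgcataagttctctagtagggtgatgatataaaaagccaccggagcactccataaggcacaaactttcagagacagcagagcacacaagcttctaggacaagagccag
CXCL1 (chr4:73869143-73869442): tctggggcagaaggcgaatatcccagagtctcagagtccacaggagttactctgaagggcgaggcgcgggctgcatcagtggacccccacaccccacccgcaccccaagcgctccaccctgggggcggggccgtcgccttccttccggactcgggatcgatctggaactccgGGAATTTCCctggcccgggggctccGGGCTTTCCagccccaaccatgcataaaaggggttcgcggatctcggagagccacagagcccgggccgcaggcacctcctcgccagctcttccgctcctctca
IL6 (chr7:22726950-22727249): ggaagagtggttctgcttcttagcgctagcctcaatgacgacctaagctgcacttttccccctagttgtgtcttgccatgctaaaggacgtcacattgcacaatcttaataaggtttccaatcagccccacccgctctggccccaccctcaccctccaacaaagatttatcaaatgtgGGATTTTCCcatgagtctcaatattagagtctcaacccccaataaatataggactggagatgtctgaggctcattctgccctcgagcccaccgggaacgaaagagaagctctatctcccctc
The match of CXCL8 begins 91 bases before the start and that of IL6 72 bases before it, and CXCL1 holds 2 matches, 78 and 53 bases before. The letters were found in 14 of the 19 list genes with a promoter in the table, in 764 of 8295 compared genes (9.21%) and in 2198 of all 35116 promoters (6.26%). Many genes are on this list as known targets of NF-kB. Among genes at least 2-fold higher 118 of 1202 (9.82%) held the letters, and among those at least 2-fold lower 81 of 1022 (7.93%). A match is a description of the sequence and not a site shown to be bound.

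Against the sh control the NF-kB list had a median of 0.20, and with the GC trend taken out the median over pCDH was 1.38. The pCDH library was the lowest of 5 for 18 of the 24 genes and overexpression the highest for 7. CXCL8 had a scaled CPM of 336 with overexpression, 34.1 with pCDH, 174 with the sh control, 249.6 with sh1088 and 310.0 with sh1196. CXCL1 had 256 with overexpression, 33.5 with pCDH, 206 with the sh control, 192 with sh1088 and 251 with sh1196. IL6 had 22.6 with overexpression, 2 with pCDH, 25.5 with the sh control, 21.2 with sh1088 and 55.7 with sh1196, with sh1196 the highest. In each of these genes overexpression lay within or just above the range of the sh libraries, and pCDH lay far below all 4.

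Interferon response genes carry out antiviral defence. Of 23 genes that reached the minimum, out of 39, 12 were at least 2-fold higher, 0 were lower by as much and all 23 above 0, with a median of 1.04. PARP9 had 63 against 208 counts, a ratio of 2.30 (1.89 to 2.73), and PARP14, a mono-ADP-ribosyltransferase, had 251 against 525 and 1.64 (1.42 to 1.87). GBP2, a guanylate-binding protein whose gene overlaps another on the same strand, had 26 against 96 and 2.46 (1.83 to 3.15). The list stood at 0.91 with the GC trend taken out and 0.14 against the sh control, and PARP14 stood at 1.20 against the sh control. The list of MHC class I and antigen processing, some of whose genes interferon also induces, went the other way. Of its 15 genes 7 were at least 2-fold lower and 2 higher, with a median of -0.81. Among the 7 is CALR, which is also counted below with the unfolded protein response. HLA-E, a ligand of natural killer receptors, had 1415 against 307 counts and -1.63 (-1.81 to -1.45), and HLA-C, a classical class I chain whose reads can be shared with its close relatives, had 1075 against 154 and -2.22 (-2.48 to -1.98). PSMB8, a subunit of the immunoproteasome, had 152 against 331 and 1.70 (1.42 to 1.99). The MHC list stood at -0.49 with the GC trend taken out and 0.34 against the sh control.

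**Figure D5:**
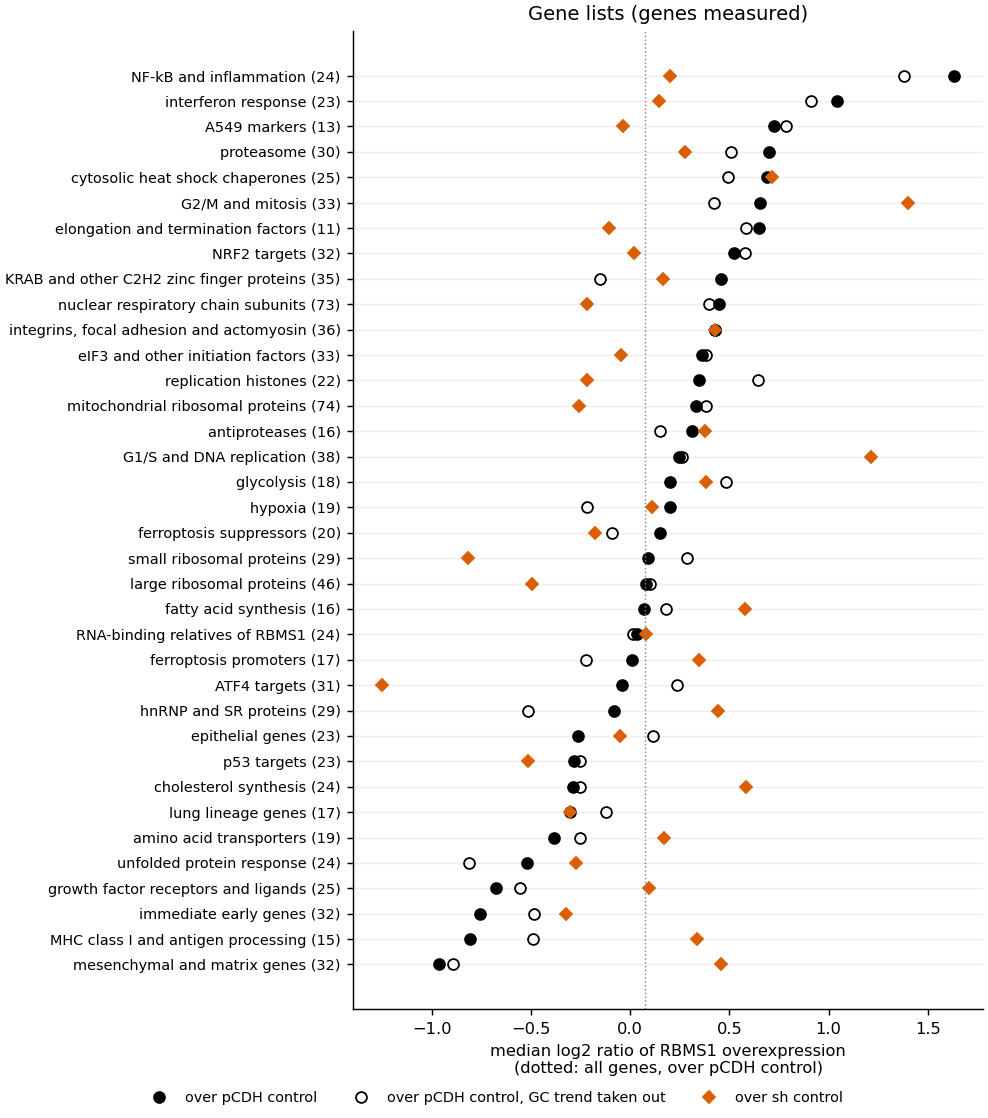
Median log2 ratio of RBMS1 overexpression (horizontal) for the gene lists with at least 10 genes compared, whose number stands in parentheses, over the pCDH control (filled), over pCDH with the GC trend taken out (open) and over the sh control (orange). The NF-kB list lies highest over pCDH at 1.63 and the mesenchymal list lowest at -0.96, while over the sh control the G2/M list lies highest at 1.40 and the ATF4 list lowest at -1.25.

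Genes of mitosis lay above the median of all genes against both controls. Of 33 genes of the G2 phase and mitosis, 12 were at least 2-fold higher than in the pCDH control and 0 were lower by as much, with a median of 0.65. The list stood at 0.42 with the GC trend taken out and 1.40 against the sh control, and the overexpression library was the highest of 5 for 21 of 33, against 21.8% of all genes. TTK, a kinase of the spindle checkpoint, had 76 against 229 counts, a ratio of 2.17 (1.79 to 2.56), and CDK1, the kinase that drives entry into mitosis, had 404 against 955 and 1.82 (1.65 to 1.99). The checkpoint protein MAD2L1 had 248 against 652, a ratio of 1.97 (1.76 to 2.19). CDK1 had a scaled CPM of 80.6 with overexpression, 23 with pCDH, 28 with the sh control, 38.3 with sh1088 and 43 with sh1196. MAD2L1 had 55 with overexpression, 14.1 with pCDH, 14.8 with the sh control, 31.7 with sh1088 and 27.8 with sh1196. TTK had 19.3 with overexpression, 4.34 with pCDH, 4.35 with the sh control, 6.66 with sh1088 and 14 with sh1196. In all 3 genes overexpression was the highest library, and pCDH and the sh control were the lowest pair. That order did not hold for the whole list. Its summed scaled CPM was 2565 with overexpression, 1642 with pCDH, 1174 with the sh control, 1354 with sh1088 and 2167 with sh1196. The pCDH library was the lowest of 5 for 8 of the 33. With the GC trend taken out 4 of the 33 were at least 2-fold higher, against 8.96% of all genes.

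For the G1/S transition and DNA replication the controls differed from each other. Of 38 genes 4 were at least 2-fold higher and 2 lower over pCDH (10.5% and 5.26%, against 14.5% and 13.2% of all genes). Their median was 0.25, against 1.22 over the sh control. Overexpression was the highest of 5 for 16 of the 38 and pCDH for 12. CCNE1, the cyclin that starts replication, had 491 against 130 counts, a ratio of -1.34 (-1.63 to -1.06), yet 1.74 over the sh control, with levels of 11 with overexpression, 28 with pCDH, 3.23 with the sh control, 6.87 with sh1088 and 12.3 with sh1196. Replication histones, whose messages carry a stem loop in place of a poly(A) tail, had 5 of 22 at least 2-fold higher and 0 lower. HIST1H3H had 1837 against 3038 and a ratio of 1.31 (1.22 to 1.39), though histone copies are alike enough for reads to be shared. Targets of p53 had 1 of 23 at least 2-fold higher and 2 lower (4.35% and 8.70%, against 14.5% and 13.2% of all genes). Their median was -0.29 over pCDH and -0.52 over the sh control. Overexpression was the lowest of 5 for 11 of the 23, against 13.3% of all genes. BAX, a promoter of apoptosis, had 4348 against 1292 counts and a ratio of -1.17 (-1.26 to -1.08).

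Genes of protein turnover and folding in the cytosol lay above the median of all genes, although their list medians by the authors' TPM were -0.02 and -0.11. Of 30 proteasome genes 12 were at least 2-fold higher and 0 lower, with a median of 0.70. PSMA7, a ring subunit of the core, had 2087 against 4160 counts, a ratio of 1.57, and PSMB3 had 2535 against 4915 and 1.53 (1.47 to 1.60). The list stood at 0.51 with the GC trend taken out and 0.28 against the sh control, and pCDH was the lowest of 5 for 21 of the 30. Of 25 heat shock chaperones and chaperonin subunits 9 were at least 2-fold higher and 0 lower, against 14.5% and 13.2% of all genes. The list median was 0.69, and 0.49 with the GC trend taken out and 0.71 against the sh control. With that trend taken out 3 of the 25 were at least 2-fold higher and 1 lower, against 8.96% and 8.47% of all genes. HSPA1A, the inducible HSP70, had 731 against 1540 and 1.65 (1.53 to 1.78), with a near-identical neighbour HSPA1B that can share its reads.

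Chaperones inside the endoplasmic reticulum went the other way. Of 24 genes of the unfolded protein response 0 were at least 2-fold higher and 8 lower, with a median of -0.52, and -0.81 with the GC trend taken out and -0.27 against the sh control. CALR, the calcium-binding chaperone calreticulin, had 35794 against 4709 counts, a ratio of -2.35 (-2.39 to -2.30), and overlaps another gene on the same strand. MANF, a protective factor of that compartment, had 3439 against 665 and -1.79 (-1.91 to -1.67). SDF2L1 and CRELD2, both of which are induced by misfolded proteins, had ratios of -1.96 and -1.63. Over the sh control MANF stood at -0.32, SDF2L1 at -1.03, CRELD2 at -1.26 and CALR at 0.34, so CALR alone of these 4 lay above 0 there.

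Mitochondrial genes encoded in the nucleus lay above the median of all genes over pCDH, although the list medians by the authors' TPM were -0.23 for the respiratory chain and -0.37 for the ribosome. Of 73 respiratory chain subunits 18 were at least 2-fold higher and 1 lower, with a median of 0.45, and 0.40 with the GC trend taken out and -0.22 against the sh control. COX7B, a small subunit of complex IV, had 1034 against 2747 counts, a ratio of 1.99 (1.89 to 2.09), and COX5A, another, had 866 against 2107 and 1.86 (1.75 to 1.98). UQCRC2, a core subunit of complex III, had 831 against 2194 and 1.98 (1.86 to 2.10). Over the sh control they stood at -0.05, -0.60 and 0.83. Of 74 mitochondrial ribosomal proteins 12 were at least 2-fold higher and 2 lower, with a median of 0.33, from MRPS26 at -2.05 to MRPL13 at 2.17, and pCDH was the lowest of 5 for 46 of them. The share at least 2-fold higher was 16.2%, near the 14.5% of all genes, and the median over the sh control was -0.26.

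By the TMM-scaled counts cytosolic ribosomal proteins lay near the median of all genes, with 0.09 for 29 small subunit and 0.08 for 46 large subunit genes. With the GC trend taken out these medians were 0.29 and 0.10. By the authors' deposited table they were 0.34 and 0.35, against 0.01 for all genes. Of the large ones 6 were at least 2-fold higher and 4 lower (13.0% and 8.70%), and of the small ones 3 and 1 (10.3% and 3.45%). The shares of all genes were 14.5% and 13.2%. RPL35A had 892 against 2331 counts, a ratio of 1.97 (1.85 to 2.08), RPL27 had 1897 against 4201 and 1.73 (1.65 to 1.81), and RPS23 had 1170 against 1897 and 1.28 (1.17 to 1.38). These genes have many processed pseudogenes, so their counts are uncertain. Over the sh control the medians were -0.82 and -0.49. Of 33 initiation factors 4 were higher and 1 lower (12.1% and 3.03%, against 14.5% and 13.2% of all genes). EIF3M, a subunit of eIF3, stood at 1.42 (1.31 to 1.52). EIF3D, the eIF3 subunit that binds caps, had 931 against 800 counts, a ratio of 0.36 (0.22 to 0.50). The termination factor ETF1 had 713 against 999 and 1.07 (0.93 to 1.21), in a list of 11 elongation and termination factors of which 4 were higher and 0 lower.

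A549 cells carry a mutated KEAP1 and so run the antioxidant programme of NRF2 at a high level. Of 32 NRF2 targets 10 were at least 2-fold higher and 4 lower, with a median of 0.52, or -0.27 by the authors' TPM, and 0.58 with the GC trend taken out and 0.02 against the sh control. Aldose reductase AKR1B1 had 7667 against 19274 counts, a ratio of 1.91 (1.87 to 1.95). AKR1C1 and AKR1C3, which reduce steroids and aldehydes and are close relatives whose reads can be shared, had 1153 against 3883 and 7870 against 18055, with ratios of 2.33 (2.24 to 2.43) and 1.78 (1.74 to 1.82). Thioredoxin TXN had 5741 against 13654 and 1.83 (1.78 to 1.87). Of the line's own 13 markers 5 were at least 2-fold higher and 0 lower. AKR1B10 and ALDH1A1 stood at 1.38 and 1.21, the latter with 61096 against 94867 counts, whereas the keratin KRT7, with 25389 against 8948, and the cadherin CDH1, with 1913 against 975, stood at -0.93 and -0.39. CDH1 was chosen after its values were seen. Over the sh control AKR1B10 stood at 1.41 and AKR1C1 at -0.04.

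A pair of iron and haem genes of the same programme was lower. HMOX1, which degrades haem and releases iron, had 2863 against 568 counts, a ratio of -1.75 (-1.89 to -1.62), and FTH1, the ferritin heavy chain that stores iron, had 28219 against 6590 and -1.52 (-1.56 to -1.48). Their levels over the sh control were -1.56 and -1.68, so both were lower against either control. Ferroptosis is a form of death by lipid peroxidation that needs iron. Of 20 genes that hold it back 3 were at least 2-fold higher and 4 lower (15.0% and 20.0%). Of 17 that promote it 3 were higher and 3 lower (17.6% each, against 14.5% and 13.2% of all genes). PRDX6, a peroxiredoxin, stood at 2.22 (2.14 to 2.31), and ACSL4, which loads membranes with polyunsaturated lipids and overlaps another gene, at 2.98 (2.82 to 3.15). Over the sh control they stood at -0.42 and 0.36. ACSL4 had a scaled CPM of 159 with overexpression, 20.3 with pCDH, 122 with the sh control, 106 with sh1088 and 93.3 with sh1196, so pCDH alone was low. GPX4, the lipid peroxidase, had 721 against 828 counts, a ratio of 0.78 (0.63 to 0.92), with 1.59 once the GC trend was taken out and -1.38 over the sh control.

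ATF4 is the transcription factor of amino acid shortage. Of 31 targets 6 were at least 2-fold higher and 6 lower (19.4% each, against 14.5% and 13.2% of all genes), with a median of -0.04 over pCDH and -1.25 over the sh control. Overexpression was the lowest of 5 for 10 of them, against 13.3% of all genes. Asparagine synthetase ASNS had 191 against 477 counts, a ratio of 1.90 (1.65 to 2.15), but -2.33 over the sh control, with levels of 40.2 with overexpression, 10.9 with pCDH, 199 with the sh control, 114 with sh1088 and 94.3 with sh1196. DDIT3, the pro-apoptotic factor CHOP, had 582 against 92 and -2.08 (-2.42 to -1.76), and -2.97 over the sh control. Both genes overlap another gene on the same strand. EPRS, a tRNA synthetase, had 1152 against 2319 and 1.59 (1.49 to 1.69).

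Of 19 amino acid transporters 3 were at least 2-fold higher and 3 lower (15.8% each, against 14.5% and 13.2% of all genes). SLC38A2, an importer of small neutral amino acids, had 10921 against 18509 counts and 1.34 (1.31 to 1.37), although the authors' TPM put it at -0.40, below 0. SLC7A5, the large neutral transporter, had 33394 against 8826 and -1.34 (-1.37 to -1.31), and its partner chain SLC3A2 had 22680 against 7613 and -1.0 (-1.03 to -0.96). SLC7A2, an importer of cationic amino acids, had 179 against 785 and 2.71 (2.48 to 2.95). Both SLC7 genes overlap another gene on the same strand. Besides PI3, the antiproteases held 4 more genes at least 2-fold higher and 4 lower of 16, with the intracellular serpin SERPINB1 at 1.60 (1.48 to 1.71).

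Mesenchymal and matrix genes lay below the median of all genes over pCDH. Of 32 mesenchymal and matrix genes 1 was at least 2-fold higher and 16 lower, with a median of -0.96, and -0.89 with the GC trend taken out and 0.46 against the sh control. CCN2, a matricellular growth factor, had 1527 against 201 counts, a ratio of -2.35 (-2.57 to -2.13), and TPM2, a tropomyosin, had 6435 against 1068 and -2.01 (-2.11 to -1.92). The fibroblast markers COL1A1 and THY1, the only pair of the 10 that reached the CPM minimum, had ratios of -1.76 and -1.57, and the endothelial marker ESAM -2.50. The summed scaled CPM of the fibroblast list was 29.7 with pCDH and 10.3 with overexpression, with a range of 5.10 to 42.4 over the 5 libraries. That of the immune list was 110.8 and 38.9, and that of the endothelial list 10.6 and 2.95. These sums rest mostly on COL1A1 and THY1, on CD68 and CD14, and on ESAM, and other markers of the same lists had more counts with overexpression, such as COL3A1 with 0 against 10 and PECAM1 with 0 against 9. The part of such cells in the result was not tested.

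Immediate early genes, which respond to growth factors within minutes and have short-lived messages, had 0 of 32 at least 2-fold higher and 13 lower, with a median of -0.76, and -0.48 with the GC trend taken out and -0.32 against the sh control. JUNB, a subunit of AP-1, had 2392 against 461 counts, a ratio of -1.80 (-1.94 to -1.65), and KLF4, a zinc finger transcription factor, had 239 against 37 and -2.11 (-2.65 to -1.61). PPP1R15A, which restarts translation after stress, had 2353 against 424 and -1.89 (-2.05 to -1.74). The list of growth factor receptors and ligands, which also holds IGF-binding proteins, had 1 of 25 higher and 12 lower. IGFBP2, IGFBP6 and FGFR4, described above, are among the 12. The list median was -0.67, and -0.56 with the GC trend taken out and 0.10 against the sh control. Beside the IGF-binding proteins described above, IGFBP4 had 52452 against 7457 counts, a ratio of -2.24 (-2.27 to -2.20). Its scaled CPM was 629 with overexpression, 2992 with pCDH, 510.1 with the sh control, 312 with sh1088 and 961 with sh1196, with pCDH again alone at the top.

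Of 24 genes of cholesterol synthesis and uptake 1 was at least 2-fold higher and 5 lower (4.17% and 20.8%, against 14.5% and 13.2% of all genes). Their median was -0.29 over pCDH and 0.59 over the sh control. Of 19 hypoxia genes 4 were higher and 3 lower (21.1% and 15.8%, near the 14.5% and 13.2% of all genes), with EGLN1, an oxygen sensor, at 1.70 (1.56 to 1.84) and VEGFA, the endothelial growth factor, at -1.64 (-1.83 to -1.46). Lung lineage genes had 0 of 17 higher and 5 lower (29.4%, against 13.2% of all genes), SOX9 among them at -1.09. Their median was -0.30 over pCDH and -0.30 over the sh control. With the GC trend taken out the median over pCDH was -0.12, with 1 gene at least 2-fold higher and 3 lower. Integrin, adhesion and actomyosin genes had 4 of 36 higher and 3 lower, epithelial genes 1 of 23 and 2, glycolysis 2 of 18 and 0, and fatty acid synthesis 3 of 16 and 2. In that order the shares were 11.1% and 8.33%, 4.35% and 8.70%, 11.1% and 0.0%, and 18.8% and 12.5%. The shares of all genes were 14.5% and 13.2%.

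Since RBMS1 binds RNA, its relatives and its binding letters were examined last. The list of RNA-binding relatives was not limited to the RBMS family. Of its 24 genes 2 were at least 2-fold higher and 1 lower (8.33% and 4.17%, against 14.5% and 13.2% of all genes). The list median was 0.03. LARP4, a poly(A)-binding stability factor, had 617 against 1448 counts, a ratio of 1.81 (1.67 to 1.95). RBMS3, a paralog of RBMS1, had 141 against 40 and -1.24 (-1.78 to -0.72), in a gene that overlaps another. Of 29 hnRNP and SR splicing proteins 2 were higher and 1 lower (6.90% and 3.45%, against 14.5% and 13.2% of all genes). HNRNPF stood at 1.05 and HNRNPAB at -1.33. The letters ATATA, an A- and U-rich pentamer of the kind RBMS proteins bind, were present on the sense strand in the 3′ untranslated region of 6089 of 10065 genes. The median ratio was 0.28 with the letters and -0.27 without. Within 5 equal bins of genes by GC content of that region the medians were 0.55 with and 0.50 without in the lowest bin, 0.24 and 0.10 in the middle one, and -0.65 and -0.65 in the highest. With the GC trend taken out the overall medians were -0.05 and 0.08. Regions with the letters were also longer, with a median of 1967 nt against 486.5 nt, and the letters occur more often in longer sequence.

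The authors' deposited table of this comparison was set beside these ratios. By its adjusted p-value under 0.05 and a log2 fold change of at least 1 in size, the authors' deposited table holds 1185 of the 10332 genes as higher and 1375 as lower, with a median log2 fold change of 0.01. That p-value was made from 1 library a side and has no replicate behind it. The counts in the authors' deposited table are the same as those of the sample tables, with a largest difference of 0. How its fold changes were scaled is not given in the sources used here.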

How the data were processed

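The study has 5 ribosome footprint libraries of A549 cells, 2 of the RBMS1 knockdown and 1 of each other group. The submitters' processing notes name RSEM 1.3.1, DESeq2, Bowtie and STAR 2.4.2 without saying what each was used for. The authors deposited RSEM expected counts per gene, with TPM, FPKM and the length and effective length of each gene, per the file headers. The authors deposited a further table for this comparison with a log2 fold change and an adjusted p-value per gene.

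Expected counts were rounded and scaled with TMM (edgeR 4.0.16, R 4.3.3, genes with at least 10 counts in either library). The log2 ratio has an exact 95% interval (Clopper-Pearson, scipy 1.17.1). Genes with 0 counts were set to a floor of 3 counts per library. Levels across the 5 libraries are TMM-scaled CPM. The GC trend was a lowess fit with a span of 0.3 (statsmodels 0.14.6) on GENCODE 29 transcripts (GRCh38). Counting precision rests on the 10470105 counts of the shallower library.

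Members and gene lists were chosen with earlier results of these data known. Genes named were RBMS1, the 15 in each direction whose interval lay farthest from 0 without a same-strand overlap, up to 4 of each list by the same bound, and SLC3A2, GPX4 and EIF3D. Marker genes and genes named only as absent are outside that rule. With 1 library in each compared group, the groups were compared without a test. The computation of the ratio and its interval was checked on simulated counts. Other scalings, units, filters and the sh control were tried. Some items are not reported here.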

Additional observations from a re-analysis of the deposited data

How the results depend on the processing

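The median ratio of 0.07 became -0.089 by library size, -0.72 by the authors' TPM, -0.095 by rescaled TPM and -0.26 by FPKM. The 1495 higher and 1368 lower genes became 259 and 3829 by TPM, 799 and 2088 by FPKM, 922 and 871 with the GC trend taken out, 2343 and 2494 with no filter, 906 and 751 at a mean CPM of 20, and 979 and 833 when the whole interval had to pass 2-fold. Leaving out overlapping genes gave 951 higher, and the sh control gave 852 lower. The rho of the ratio with GC content became -0.42 by TPM, -0.42 by FPKM and -0.12 over the sh control. SLC38A2 stood at -0.40 by TPM.

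Against the sh control 30 named genes that were past 2-fold lay on the other side of 0, as did GPX4 at -1.38, SLC3A2 at 0.44, CD14 at 0.89 and CDH1 at 0.57, which were not past it. These were AKR1C1 at -0.039, ASNS at -2.33, CALR at 0.34, CCNE1 at 1.74, CD68 at 0.18, COL1A1 at 1.14, COL6A2 at 1.29, COX5A at -0.60, COX7B at -0.055, EGLN1 at -0.17 and ESAM at 1.22. They also included ETF1 at -0.36, EVA1B at 0.34, FAM20C at 0.96, HIST1H3H at -0.13, HLA-C at 0.36, HNRNPAB at 0.43, IGFBP4 at 0.28 and IL6 at -0.20. The others were PRDX6 at -0.42, PSMB3 at -0.46, PSMB8 at -0.25, RPL27 at -0.42, RPL35A at -0.13, RPS23 at -0.66, SDC1 at 0.79, THY1 at 1.21, TPM2 at 0.056, TXN at -0.012 and VGF at 0.15. The cause was not tested. No paired analysis was possible because the compared groups have 1 library each, and for the same reason no replicate could be left out.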
